A study of Mus musculus with 62 samples.

Results

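The 8 genes described here are Mbp, Pmp22, Prx, Mag, S100b, Egr2, Ncmap and Sox10, genes of the Schwann cell that wraps motor and sensory axons inside skeletal muscle. They were chosen by measured values, because their mRNA read lower in ChREBP muscle knockout (ChMKO) than in control (F/F) muscle on chow, so the chow differences between genotypes are given as a description and carry no test. All 8 were found among the 29239 gene symbols of the chow table, the 21936 of the stress table and the 21039 of the AAV table, and 6 were found among the 17898 of the cell line table, where Mag and Sox10 were not analysed here. The series holds 62 RNA-seq libraries in 14 groups, of which 54 libraries in 12 groups are whole mouse muscle.

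The F/F mice carried the ChREBP-flox allele alone, with exon 8 of ChREBP (gene symbol Mlxipl) between loxP sites, and served as littermate controls. The ChMKO mice carried ChREBP-flox;Mck-cre, in which the muscle creatine kinase promoter drives Cre in skeletal and heart muscle fibres, so that the floxed allele is shared by both groups and Schwann cells are not the target of the Cre. On chow without other treatment, gastrocnemius (GC) and soleus (SOL) were sequenced from F/F and ChMKO mice with 5 libraries in each of the 4 groups. In a second experiment GC was taken from F/F and ChMKO mice kept under normoxia (Norm), for 2 weeks in a chamber simulating about 5500 m altitude (Hypo), or for 3 months on a high-fructose diet with 68% of calories from fructose (HFrD), with 4 libraries in each of the 6 groups. In the AAV experiment GC of C57BL/6J mice was taken 14 days after a single intramuscular injection of an AAV9 vector carrying ChREBP (AAV-ChREBP) or of the control vector (AAV-CON), with 5 libraries each; expression ran from the CMV promoter, which is not restricted to muscle fibres. In the last, C2C12 mouse myoblasts carrying a retroviral ChREBP construct (OE) or vector control (CON) were collected at day 7 of differentiation, with 4 libraries each, and these were cultures of 1 line without nerve. Mice were generally used at 8 to 10 weeks of age. The age at collection after 3 months of HFrD is not given in the sources used here, so age and diet cannot be told apart between Norm and HFrD. Nothing in the sources used here says how much of the intramuscular nerve was kept in the piece taken for RNA, and fewer Schwann cells in a piece cannot be told apart from less mRNA per Schwann cell.

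Values are FPKM, fragments per kilobase of transcript scaled to the sequencing depth, which are corrected for gene length and can be compared between genes; the experiments were normalised separately, so levels set across them are only approximate. The stress libraries held 14473169 to 23460511 reads on genes, and depth is unknown for the other tables. In whole muscle the 8 myofibre genes checked, such as Acta1 and Ckm, summed to at least 30680 FPKM in every chow library. Mlxipl checked the labels: it read 20.4 to 30.3 FPKM in GC F/F and 12.5 to 18.5 in GC ChMKO, 7.76 to 10.8 FPKM in F/F and 2.38 to 4.49 in ChMKO of the stress experiment, and 10.4 to 12.3 FPKM under AAV-CON and 52.9 to 101.1 under AAV-ChREBP, each without overlap. In SOL it read 43.8 to 64.1 FPKM in F/F and 30.0 to 46.2 in ChMKO, with overlapping ranges. Libraries are called by the number in their label or, in the stress experiment, by the whole label, in which N marks Norm, H marks Hypo, a leading KO or WT without them HFrD, and WT is F/F. The SOL F/F library numbered 69 in its column has 59 in its title, and it is called 69 here.

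Schwann cells that ensheath large axons build myelin, a stack of compacted membrane that speeds conduction, and the myelinating state is set by a small chain of transcription factors. Sox10 marks the whole Schwann lineage and switches on Egr2 (Krox20), the zinc-finger factor that drives myelin genes. Mbp encodes myelin basic protein, which zips the cytoplasmic faces of the membrane together, and Pmp22 a tetraspan protein of compact myelin whose gene dosage underlies the common inherited demyelinating neuropathy. Mag encodes an adhesion molecule of the membrane next to the axon, Prx encodes periaxin, a scaffold that ties the outer Schwann cell membrane to the basal lamina, Ncmap encodes a small non-compact myelin protein, and S100b a calcium-binding protein used as a Schwann cell marker. Pmp22 and Egr2 are also made outside the nerve, and Mbp has a further transcript family in immune cells.

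The stretches upstream of 4 of the genes are shown for the following reasons. Most of the members, Egr2 apart, move together across the chow and stress libraries, and 2 members, Sox10 and Egr2, encode factors that bind near myelin genes. Windows of 250 bases before a RefSeq start (assembly GRCm38.p6, read in the gene's own direction) were read for 6 of the 8 genes, 16 windows in all; Sox10 had no entry and Mbp is named only. Each was searched on both strands for ACAAAG and ACAATG, core letters read by SOX factors, GTGGGCG, core letters read by EGR factors, and CACGTG, an E-box of the kind that ChREBP response elements carry as a spaced pair. Capitals mark a match, and a window without capitals held none of these letters. Mag lies at chr7:30914923-30915172 (minus strand), Prx at chr7:27499074-27499323 (plus), Pmp22 at chr11:63128732-63128981 (plus) and Egr2 at chr10:67535249-67535498 (plus).
Mag: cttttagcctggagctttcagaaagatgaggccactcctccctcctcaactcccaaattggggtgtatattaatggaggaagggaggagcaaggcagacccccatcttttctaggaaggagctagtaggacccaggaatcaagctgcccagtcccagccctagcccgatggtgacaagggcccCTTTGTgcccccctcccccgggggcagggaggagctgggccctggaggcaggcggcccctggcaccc
Prx: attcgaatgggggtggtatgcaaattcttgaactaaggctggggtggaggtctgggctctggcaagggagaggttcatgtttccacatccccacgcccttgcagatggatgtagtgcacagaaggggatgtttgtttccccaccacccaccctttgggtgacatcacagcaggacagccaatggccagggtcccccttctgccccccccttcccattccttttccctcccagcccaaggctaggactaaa
Pmp22: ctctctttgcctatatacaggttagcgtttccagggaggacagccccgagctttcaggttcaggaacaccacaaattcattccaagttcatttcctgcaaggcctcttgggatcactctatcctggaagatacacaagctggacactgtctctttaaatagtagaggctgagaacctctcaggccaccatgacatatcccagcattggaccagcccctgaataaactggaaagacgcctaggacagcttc
Egr2: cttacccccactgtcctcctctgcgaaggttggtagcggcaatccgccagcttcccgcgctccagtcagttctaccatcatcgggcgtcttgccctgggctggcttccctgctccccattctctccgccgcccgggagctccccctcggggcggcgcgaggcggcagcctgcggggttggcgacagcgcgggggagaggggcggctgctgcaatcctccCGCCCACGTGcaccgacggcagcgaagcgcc

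The window printed for Egr2 is the only 1 of its 5 that held a match, and that for Mag is 1 of 2 with a match among its 3. In the Mag window shown the capitals are ACAAAG read on the other strand, and in the Egr2 window shown they are GTGGGCG read on the other strand overlapping a CACGTG. The windows of Prx and Pmp22, like those of S100b and Ncmap, held none of the 4 motifs. Of all 32851 mouse promoter windows of this length, 16.5% held ACAAAG, 10.7% ACAATG, 7.02% GTGGGCG and 6.02% CACGTG, so single matches are common, and a match is a description of letters and not a bound site.

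On chow, the myelin genes of GC were highest by far in 1 F/F library, and most overlapped between the genotypes. Mbp read 35.2 FPKM in F/F library 69 and 1.20, 5.20, 2.35 and 4.59 FPKM in F/F libraries 57, 58, 70 and 71. In ChMKO GC Mbp read 2.78, 1.88, 1.60, 1.88 and 0.967 FPKM in libraries 59, 60, 61, 72 and 74. For Mbp the highest F/F library was thus far above the rest, while F/F library 57 lay within the ChMKO range. Pmp22 read 99.2 FPKM in F/F library 69, against 8.29, 17.8, 11.4 and 16.2 FPKM in F/F 57, 58, 70 and 71 and 13.4, 10.54, 8.45, 8.81 and 7.78 FPKM in the ChMKO libraries. Prx, the periaxin gene, read 18.1 FPKM in F/F 69, 0.715 to 2.34 FPKM in the other F/F libraries and 0.601 to 1.49 FPKM in ChMKO. Of the low genes, Ncmap read 6.78 FPKM in F/F 69, 0.160 to 0.625 in the others and 0.134 to 0.245 in ChMKO. Mag, the adhesion molecule, read 1.78 FPKM in F/F 69, 0.176 to 0.339 in the others and 0.0440 to 0.287 in ChMKO. S100b read 3.61 FPKM in F/F 69, 0.245 to 0.771 in the others and 0.138 to 0.536 in ChMKO. All of these ranges overlapped between the genotypes.

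Sox10, the lineage factor, differed from the rest of the 8 in that every F/F GC library was above every ChMKO library. It read 0.513, 0.765, 4.10, 0.505 and 0.611 FPKM in F/F 57, 58, 69, 70 and 71, and 0.366, 0.131, 0.265, 0.381 and 0.150 FPKM in ChMKO 59, 60, 61, 72 and 74. Only Sox10 of the 8 members had all F/F values above all ChMKO values in GC. It was 1 of the 6 members that averaged 0.5 FPKM or more there, the minimum for a test, and 0.314% of all genes above that minimum did so. Without library 69 only Mbp, Pmp22 and Prx, 3 of 8, were above the minimum, so Sox10, Ncmap and S100b had passed it through that library, and the rule that chose the genes used this contrast and nothing is read from the count. Egr2, its partner, sat at the floor of the chow table, at 0.0372 to 0.0942 FPKM in GC F/F and 0.0496 to 0.0735 FPKM in GC ChMKO, with overlapping ranges.

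**Figure D1:**
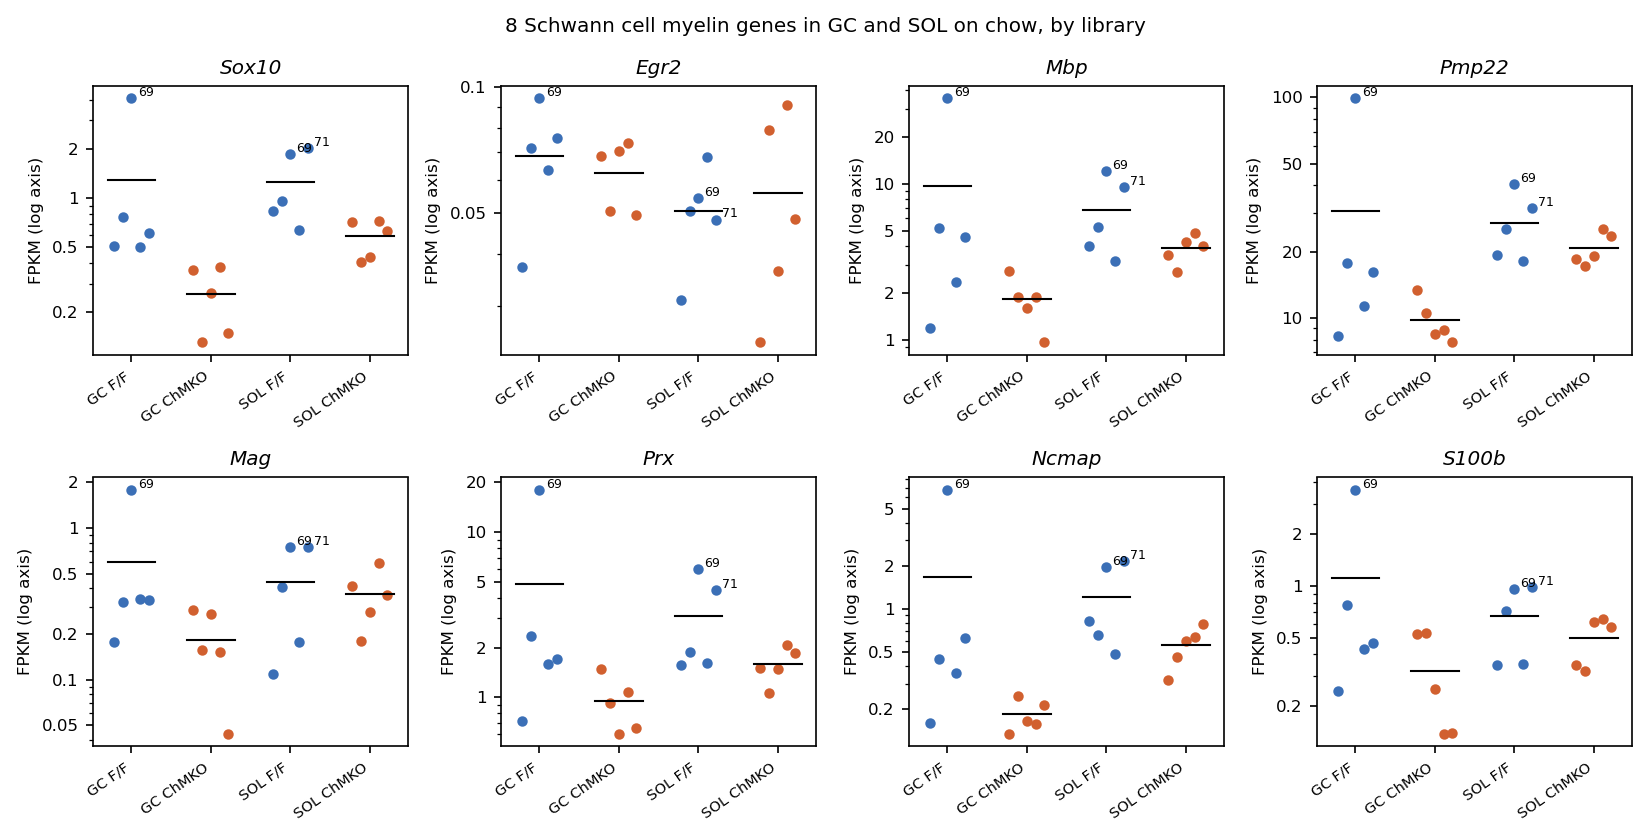
FPKM of the 8 genes in each chow library, on a log axis, by muscle and genotype, with 1 point per library, a bar for the group mean and the highest libraries marked by the number in their label. F/F GC library 69 is the highest point for Mbp (35.2 FPKM), Pmp22 (99.2) and Ncmap (6.78), and SOL F/F libraries 69 and 71 lie above the other SOL libraries for most of the genes.

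Library 69 held most of the F/F signal in GC. It contributed 72.5% of the summed Mbp of the 5 F/F libraries, 64.9% of Pmp22, 81.0% of Ncmap and 63.1% of Sox10. The F/F mean of Mbp was 9.71 ± 14.4 FPKM (SD, n = 5) against 1.82 ± 0.652 in ChMKO (SD, n = 5), a ratio of 5.34 that became 1.83 without library 69. For Pmp22 the ratio of F/F to ChMKO was 3.12 with it and 1.37 without, for Prx 5.15 and 1.67, for Ncmap 9.14 and 2.17, and for Sox10 5.02 and 2.32. Mag went from 3.24 to 1.61, S100b from 3.47 to 1.5, and Egr2 stayed near even at 1.10 and 0.993.

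SOL showed a smaller version with 2 high F/F libraries. GC and SOL libraries carry the same numbers, and whether 69 in both is 1 mouse is not stated in the sources used here. Mbp read 3.99, 5.28, 12.0, 3.22 and 9.59 FPKM in SOL F/F 57, 58, 69, 70 and 71, and 3.49, 2.74, 4.22, 4.86 and 4.02 FPKM in SOL ChMKO 59, 60, 61, 72 and 74. Pmp22 read 19.4, 25.2, 40.6, 18.1 and 31.5 FPKM in F/F and 18.5, 17.3, 19.2, 25.3 and 23.7 FPKM in ChMKO. Libraries 69 and 71 were thus the high ones for both genes, and the remaining F/F libraries lay among the ChMKO ones, except that Mbp in F/F 58 was above every ChMKO library. Sox10 read 0.834, 0.963, 1.85, 0.642 and 2.02 FPKM in F/F and 0.410 to 0.725 FPKM in ChMKO. Without F/F 69 and 71 the ratio of F/F to ChMKO went from 1.77 to 1.08 for Mbp, from 1.3 to 1.01 for Pmp22, from 1.94 to 1.05 for Prx, from 1.34 to 0.943 for S100b and from 2.16 to 1.39 for Sox10, and Mag, at 1.20 with them, went to 0.632. In SOL 0 of 8 members, 6 of them above the minimum, had groups without overlap, and 1.16% of all genes above the minimum had every F/F value above every ChMKO value. Lists of genes of other cells also had chow estimates mostly on 1 side, with 0 called in the lists given here. In SOL the 9 adipocyte genes tested were all lower in ChMKO, with a median of -0.43 on the log2(FPKM + 1) scale against -0.46 for the members, and 6 of 7 endothelial genes were lower (median -0.19). In GC the 7 tendon and fascia genes tested were all higher in ChMKO (median 1.08), as were the 7 macrophage and leukocyte genes (0.37). Their part in the chow differences was not tested. Across all genes, limma on log2(FPKM + 1) called 0.0236% between genotypes in GC and 0.0225% in SOL at a Benjamini-Hochberg adjusted p under 0.05.

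Other genes of the myelinating Schwann cell stood high in the same libraries as the members. The 18 other myelinating Schwann cell genes used, such as Cldn19, Drp2, Gjb1 and Mal, summed to 11.1, 18.7, 67.4, 14.6 and 15.8 FPKM in GC F/F 57, 58, 69, 70 and 71 and to 10.8 to 13.6 FPKM in GC ChMKO. Cnp, which muscle cells in culture also make, held a large part of that sum, with a median of 7.70 FPKM in GC F/F and 6.86 in GC ChMKO. Relative to that sum (log2 ratio, ChMKO minus F/F), GC read -0.73 for Mbp, -0.28 for Pmp22, -0.7 for Prx and -0.70 for Mag. It read -0.60 for S100b, -1.11 for Ncmap, -1.16 for Sox10 and 0.64 for Egr2, with library 69 included. In SOL Mag and Egr2 read 0.262 and 0.289, and the rest -0.0655 to -0.745. In SOL the 18 genes summed to 19.2, 29.3, 37.3, 22.7 and 34.9 FPKM in F/F and to 20.2 to 27.3 FPKM in ChMKO, so libraries 69 and 71 again stood high. Of these 18 genes, 9 were measured well enough to be fitted in GC and all 9 had a lower ChMKO estimate, with a median of -0.58 on the log2(FPKM + 1) scale, against 0.006 over all genes; in SOL 10 were fitted, 9 were lower and the median was -0.24, against -0.02. Without GC library 69 the median of the same 9 genes was -0.17 and all 9 were still lower, but 3 of them, Cldn19, Fa2h and Pllp, were under the minimum level, which they had passed through that library. Without SOL libraries 69 and 71 the median of the same 10 was -0.04, with 6 of 10 lower, and Cldn19 and Fa2h were under the minimum, as was S100b among the members. The list of 8 non-myelinating or immature Schwann cell genes summed to 1.05 to 2.07 FPKM in GC F/F, with library 69 highest, and to 0.975 to 1.69 in GC ChMKO, and Gfap, Sox2 and Foxd3 lay under 0.1 FPKM throughout both groups.

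Genes of the sheath and the axon did not stand out in GC library 69, whereas in SOL the axon list was highest in F/F 71. The 8 perineurial and endoneurial genes summed to 6.23 to 10.3 FPKM in GC F/F, with library 69 at 7.48, and to 6.39 to 11.2 in ChMKO. The 11 neuron and axon genes in the table, of 12 listed, summed to 3.58 to 5.93 FPKM in GC F/F, with library 69 at 5.23, and to 3.74 to 8.18 in ChMKO, and Nefl, Nefm, Nefh and Chat, the neurofilament subunits and the acetylcholine-making enzyme, were under 0.1 FPKM in every chow group. In SOL F/F 57, 58, 69, 70 and 71 the neuron and axon genes summed to 12.2, 24.95, 17.0, 20.3 and 31.6 FPKM, against 16.1 to 23.8 in ChMKO, so that library 71 was the highest of all chow libraries and library 69 was within the ChMKO range. The perineurial and endoneurial genes summed to 13.3 FPKM in SOL F/F 69 and 10.1 in SOL F/F 71, the lowest of the SOL libraries, against 10.7 to 16.6 in ChMKO. The cell bodies that make axonal mRNA lie outside the muscle, in the spinal cord and ganglia, so low values of these genes leave the amount of axon unmeasured. The 10 neuromuscular junction genes summed to 44.0 to 54.1 FPKM in GC F/F and to 40.6 to 50.8 in ChMKO. GC library 69 and SOL libraries 69 and 71 also stood high in some other lists. GC F/F 69 had the highest adipocyte (2292 FPKM) and myofibre (63900) sums of its group, but not the highest endothelial or tendon and fascia sum. SOL F/F 69 was highest of its group for adipocyte genes (2478), and SOL F/F 71 for endothelial (266.5) and red cell genes (354.3). On the second principal component of chow (6.79% of variance) GC F/F 69 was at 0.48 and SOL F/F 71 at 0.773. The next, GC F/F 71, was at 0.103. Whether more nerve tissue in GC 69 and SOL 69 and 71 sets the chow difference was not tested.

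**Figure D2:**
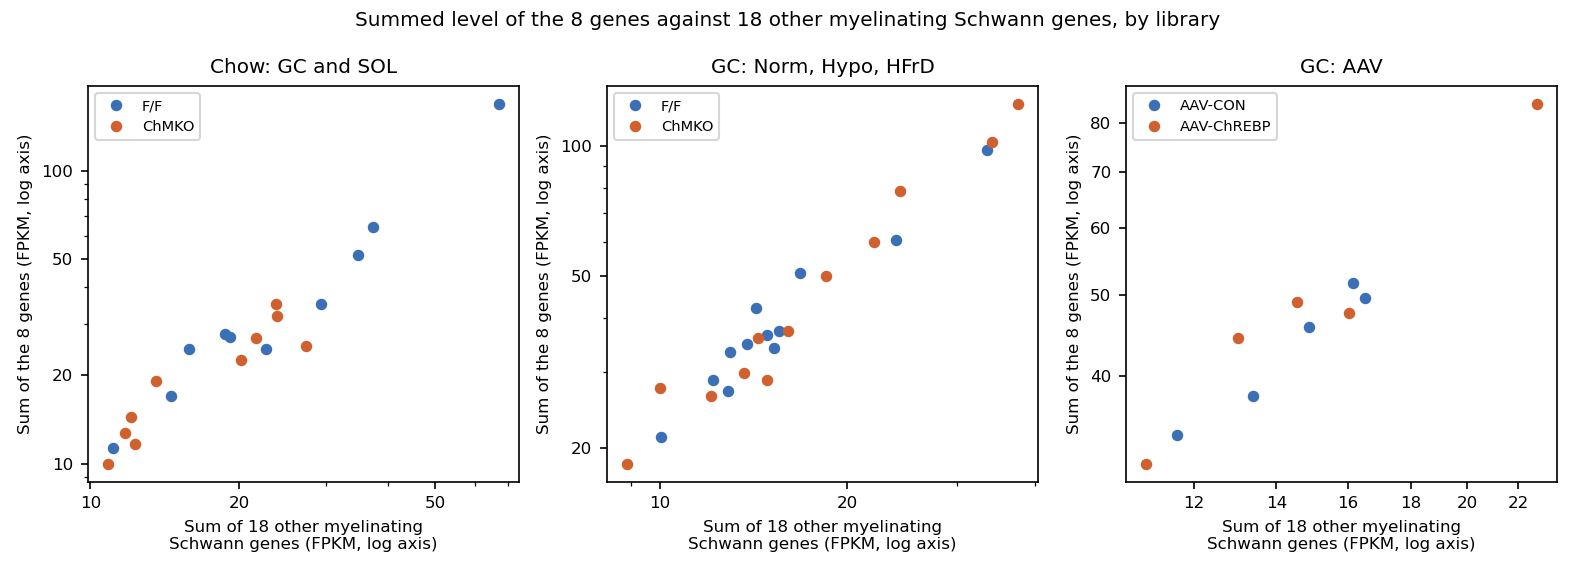
Summed FPKM of the 8 genes in each muscle library (vertical, log axis) against the summed FPKM of the 18 other myelinating Schwann cell genes (horizontal, log axis), with 1 panel each for the chow, stress and AAV experiments and colours for genotype or vector. GC F/F library 69 lies at 67.4 FPKM on the horizontal axis and 168.9 on the vertical, above every other chow library, and points of both colours run along 1 band in each panel.

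How closely the 8 genes follow each other was described by Pearson's r across libraries, on log2(FPKM + 1) after subtracting each group's mean, which leaves only the differences within a group. The genes of a library share its tissue piece and depth, and r is a description with no test. Against the mean of the other members, r was 0.979 for Mbp, 0.983 for Pmp22, 0.986 for Prx and 0.958 for Sox10 over the 20 chow libraries, and 0.430 for Egr2. In the stress table r was 0.959 for Mbp and 0.261 for Egr2, and the rest lay between 0.783 and 0.974. Over the 10 AAV libraries it was 0.944 to 0.966 for Mbp, Pmp22 and Prx. It was lower for the rest, at 0.554 for Mag, 0.584 for Egr2, 0.593 for Ncmap, 0.627 for Sox10 and 0.660 for S100b. Against the sum of the 18 other Schwann genes, r was 0.955 for Mbp and 0.401 for Egr2 on chow, and 0.841 and -0.00885 after leaving out the 2 libraries farthest from the median of that sum. Of 9614 genes compared in the chow, stress (n = 24) and AAV (n = 10) tables, those most like the members, by the smallest of their 3 correlations, were Mal at 0.923, Gatm at 0.904, Drp2 at 0.883 and Cadm4 at 0.870. Next came Ndrg1 at 0.834, Spp1 at 0.827, Aatk at 0.821, Plekha4 at 0.816, Cldn19 at 0.762, Endod1 at 0.745, Itgb4 at 0.743 and Mapk8ip1 at 0.686. Mal, Drp2, Cadm4 and Cldn19 are among the 18 listed Schwann cell genes, and Itgb4 is among the perineurial and endoneurial genes.

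The comparison between the muscles is another contrast than the one that chose the genes, but it rests on the same chow libraries. The genes were chosen to read low in ChMKO, in GC by more than in SOL, so its values are given as a description, with no p for a member. In ChMKO mice SOL read higher than GC for the members above the minimum level. Pmp22 read 18.5, 17.3, 19.2, 25.3 and 23.7 FPKM in SOL ChMKO against 7.78 to 13.4 FPKM in GC ChMKO, without overlap, and was higher by 1.02 ± 0.14 (SE, log2 scale, n = 5 per muscle). Mbp was higher by 0.80 ± 0.16, although SOL library 60 at 2.74 FPKM was just under GC library 59 at 2.78. Prx was higher by 0.42 ± 0.14, with 1.06 to 2.08 FPKM in SOL and 0.601 to 1.49 in GC. All 3 passed limma's threshold, as did 57.9% of all genes tested, and nothing is read from this count; the median over all genes was 0.15. The other 5 members were below the 0.5 FPKM minimum. Ncmap, at 0.317 to 0.788 FPKM in SOL and 0.134 to 0.245 in GC, and Sox10, at 0.410 to 0.725 and 0.131 to 0.381, were also without overlap, making 3 of 8 members higher in SOL without overlap, where 15.9% of all 29239 symbols were. Among genes above the minimum these were 1 of 3 members, Pmp22, and 30.2% of all genes.

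In ChMKO mice most of the other listed genes of the nerve that could be tested were also higher in SOL. Of the 18 other Schwann genes 8 were tested and 7 were called higher in SOL ChMKO, where 41.0% of all genes were, among them Drp2 by 0.71 and Cadm4 by 0.88. The list rests on the same chow libraries as the members, so its count is a description as well. Erbb3, the Schwann cell receptor for neuregulin, was higher by 0.82, and the ubiquitin hydrolase gene Uchl1, a neuronal marker, by 1.71. Of the perineurial and endoneurial genes 3 of 5 tested were called higher, while Osr2 was at -0.01 and Wif1 at -0.25 (limma, adjusted p = 0.942 and 0.538). Drp2, Cadm4 and Erbb3 are also made by cultured muscle cells, as described for C2C12 cells, and Erbb3 did not follow the members on chow (r = -0.327 within groups). All 7 tested endothelial genes were also called higher, and their part in the muscle difference was not tested. In F/F mice 2 of the 10 tested Schwann genes were called higher in SOL, with a median of 0.16 against 0.18 over all genes, as were 2 of 6 perineurial and endoneurial genes and 37.9% of all genes. Of the members in F/F mice, Pmp22 was at 0.38 ± 0.54, Mbp at 0.20 ± 0.64 and Prx at -0.01 ± 0.57 (SE). Past limma's threshold were 0 of 7, where 50.4% of all genes were, and nothing is read from this count either. GC library 69 weighed on these values: without it Pmp22 stood at 0.95, Mbp at 0.83 and Prx at 0.57, and 1 member passed the threshold. Whether the muscle difference itself differs between the genotypes was not tested.

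In the stress experiment, which the choice of genes did not use, the genotypes were compared again in separate GC samples. Under Norm, Mbp read 15.1, 5.79, 9.19 and 4.78 FPKM in F/F N_WTc368, N_WTc369, N_WTc397 and N_WTc401 and 6.59, 3.88, 14.5 and 3.13 FPKM in ChMKO N_KO_370, N_KO_374, N_KO_375 and N_KO_380. Pmp22 read 67.5, 33.1, 41.9 and 22.9 FPKM in F/F and 42.0, 26.0, 71.5 and 20.4 FPKM in ChMKO. Each genotype thus had 1 library well above its others, F/F N_WTc368 and ChMKO N_KO_375, and the ranges overlapped. Egr2 went its own way, at 5.16 FPKM in F/F N_WTc369 and 3.22 FPKM in ChMKO N_KO_370 against 0.298 to 1.29 FPKM in the other 6 Norm libraries. Of the 8 members 7 were tested, since Mag stayed at 0.168 to 0.568 FPKM under Norm, and limma called 0 of 7 (0.00922% of all genes were called) and 0 at p under 0.05 before adjustment (11.1% of all genes). Mbp was at -0.36 ± 0.45, Prx at -0.21 ± 0.38, Pmp22 at -0.10 ± 0.42 and Sox10 at -0.17 ± 0.18 on the log2 scale (SE, n = 4 per group), with a lowest adjusted p of 0.626. The ChMKO estimate was lower for 6 of 7, all but Ncmap, with a median of -0.10 against 0.05 over all genes. This direction turned when a single library was left out: the median was 0.03 without F/F N_WTc368, 0.01 without ChMKO N_KO_380 and 0.002 without ChMKO N_KO_374, and Mbp ranged from -0.74 (without ChMKO N_KO_375) to -0.08 (without F/F N_WTc368).

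Under Hypo the estimates pointed the other way from chow but did not pass the test. Mbp read 5.03, 3.55, 3.51 and 4.76 FPKM in F/F H_WTc341, H_WTc348, H_WTc360 and H_WTc361, and 11.3, 2.77, 20.4 and 6.48 FPKM in ChMKO H_KOc332, H_KOc333, H_KOc340 and H_KOc345. ChMKO H_KOc332, H_KOc340 and H_KOc345, 3 of 4, were above every F/F library, ChMKO H_KOc333 was below every one, and the ranges overlapped. Prx read 1.68 to 2.65 FPKM in F/F and 4.99, 1.20, 8.83 and 3.67 FPKM in ChMKO, and S100b 0.923 to 1.61 FPKM in F/F and 2.71, 0.971, 4.67 and 2.14 FPKM in ChMKO, in the same order of libraries. Mbp was at 0.84 ± 0.43, Pmp22 at 0.74 ± 0.36, Prx at 0.63 ± 0.37 and S100b at 0.57 ± 0.27 (SE, limma, n = 4 per group, adjusted p = 0.532 for each). All 7 tested members had a higher ChMKO estimate, with a median of 0.57 against 0.08 over all genes, 0 were called (0.00941% of all genes) and 0 had p under 0.05 before adjustment (5.27%). Single libraries weighed on this: without ChMKO H_KOc340 the median fell to 0.30 and Mbp to 0.44, and without ChMKO H_KOc333 they were 0.82 and 1.28, with 5 of 7 under 0.05 before adjustment and 0 called. Genes of other cells had higher ChMKO estimates under Hypo as well, with a median of 0.47 for the macrophage and leukocyte genes (7 of 7 higher), 0.62 for the red cell genes (5 of 5), 0.36 for the adipocyte genes (6 of 8) and 0.27 for the endothelial genes (7 of 8), none of them called; their part in the members' estimates was not tested.

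On HFrD all 7 tested members had a lower ChMKO estimate, with a median of -0.12 against -0.01 over all genes, and the ranges of all 8 members overlapped. The direction turned without ChMKO KO_C299 (median 0.03, 2 of 7 lower) and without F/F WT_C301 (0.02, 3 of 7 lower). Mbp read 2.85, 4.98, 6.07 and 3.69 FPKM in F/F WT_C292, WT_C294, WT_C301 and WT_C310 and 3.96, 5.77, 2.15 and 4.23 FPKM in ChMKO KO_C291, KO_C293, KO_C299 and KO_C309. S100b read 0.944, 1.58, 1.75 and 1.33 FPKM in F/F and 0.861, 1.15, 0.532 and 1.17 FPKM in ChMKO, with overlap, and was at -0.32 ± 0.13 (limma, adjusted p = 0.666). The count was 0 of 7 called (0.019% of all genes), with S100b, 1 of 7, under 0.05 before adjustment (7.36%). Over the 3 conditions in 1 fit, the genotype estimate was 0.12 ± 0.27 for Mbp, 0.20 ± 0.22 for Pmp22 and 0.03 ± 0.10 for Sox10, and 0 of 7 were called (0.028% of all genes), with adjusted p between 0.513 and 0.857 and 0 at p under 0.05 (25.0%).

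**Figure D3:**
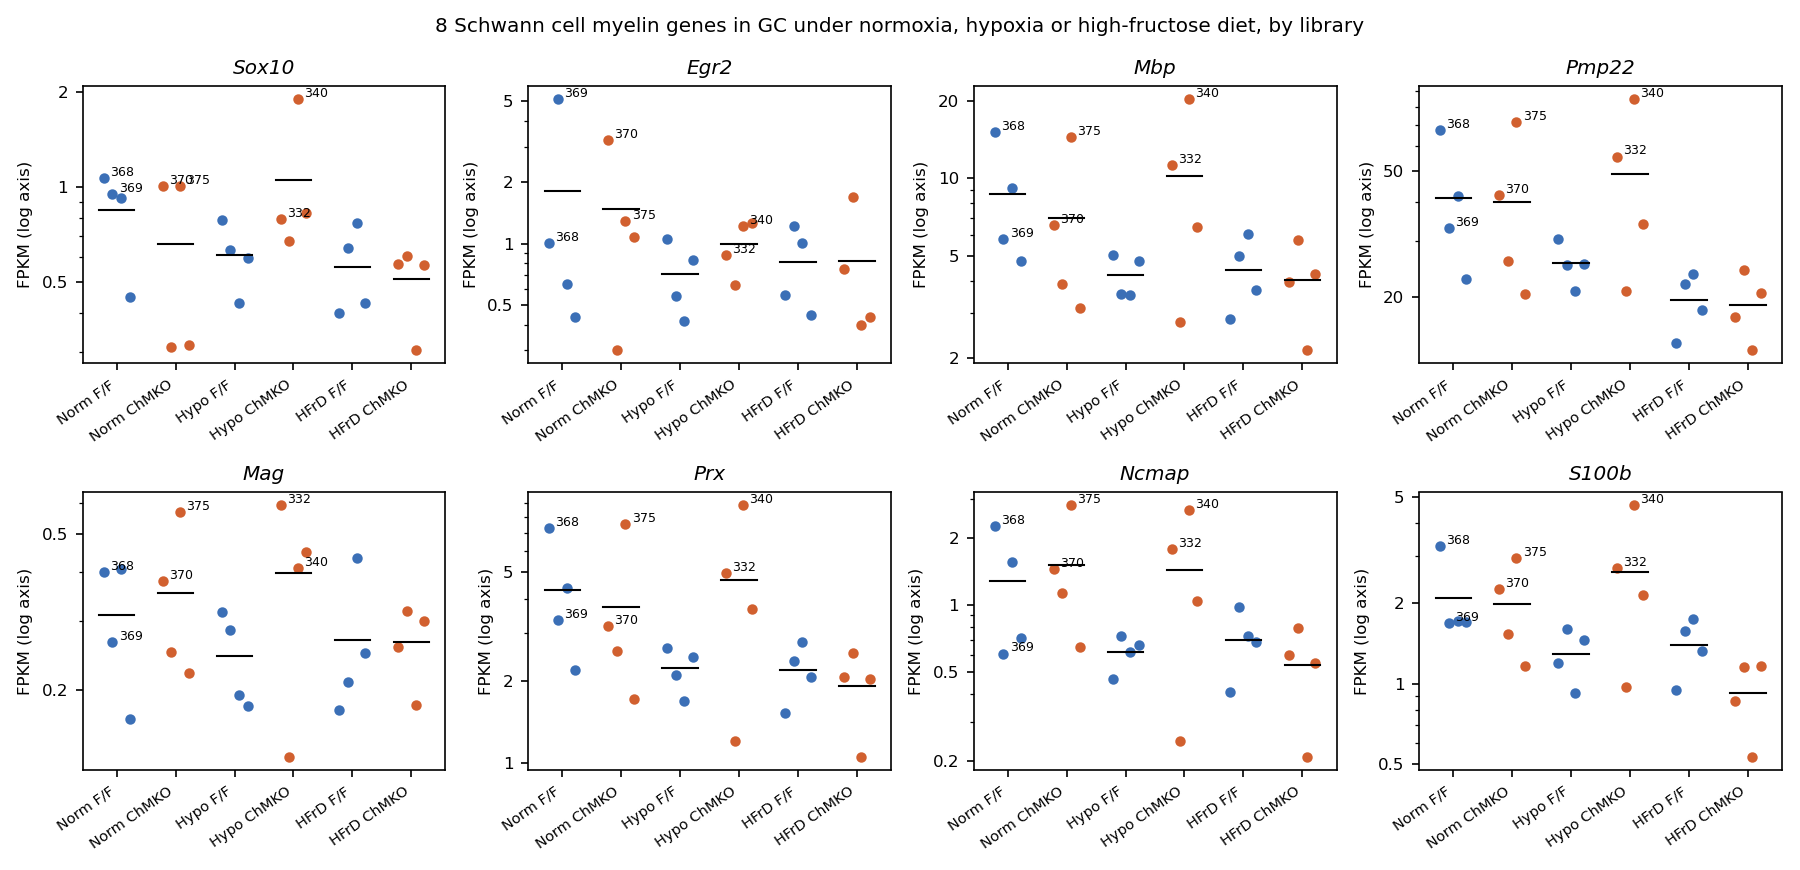
FPKM of the 8 genes in each GC library of the stress experiment, on a log axis, by condition and genotype, with 1 point per library, a bar for the group mean and the highest libraries marked by the number in their label. Norm F/F N_WTc368, Norm ChMKO N_KO_375, Hypo ChMKO H_KOc332 and Hypo ChMKO H_KOc340 are the 4 highest libraries for Mbp, at 15.1, 14.5, 11.3 and 20.4 FPKM, and they come from both genotypes.

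The test of whether the genotype effect differed between conditions also gave no call. The change in the genotype effect from Norm to Hypo was 1.21 ± 0.68 for Mbp (limma, adjusted p = 1) and 0.84 ± 0.60 for Pmp22, with 0 of 7 called (0.0% of all genes) and 0 at p under 0.05 (1.23%). From Norm to HFrD it was 0.25 ± 0.55 for Mbp and 0.05 ± 0.50 for Pmp22, with 0 called (0.0%) and 0 at p under 0.05 (10.3%).

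The other myelinating Schwann genes again stood high in the same libraries, and the sheath and axon genes did so under Norm. Among the Hypo ChMKO libraries, sheath and axon genes were lowest in H_KOc332 and highest in H_KOc345, with H_KOc340 next. The 18 other Schwann genes reached 33.5 FPKM in Norm F/F N_WTc368, 34.1 in Norm ChMKO N_KO_375 and 37.6 in Hypo ChMKO H_KOc340, and they had group medians of 14.03 FPKM in Hypo F/F and 21.4 in Hypo ChMKO. Of the 9 tested between the genotypes under Hypo, all 9 had a higher ChMKO estimate, 0 were called and their median was 0.37. Nefm, Nefh, Snap25, Chat and Slc18a3 lay under 0.1 FPKM in all 6 groups, and the 12 neuron and axon genes summed to 1.68 to 5.03 FPKM, with Hypo ChMKO H_KOc345 highest. Under Norm these and the 8 perineurial and endoneurial genes were highest of their group in the libraries high for the members, the axon genes at 3.48 FPKM in F/F N_WTc368 and 3.71 in ChMKO N_KO_375 and the sheath genes at 15.7 and 14.8. Under Hypo the sheath genes summed to 7.85, 9.48, 14.9 and 15.7 FPKM in Hypo ChMKO H_KOc332, H_KOc333, H_KOc340 and H_KOc345. The axon genes summed to 2.40, 3.18, 3.33 and 5.03 FPKM in the same order. Of the libraries high for the members, H_KOc332 was thus the lowest of its group and H_KOc340 next to the highest. Between the genotypes under Hypo 6 of 6 tested sheath genes (median 0.13) and 2 of 2 tested axon genes (0.19) had higher ChMKO estimates, with 0 called. The part of these genes in the Hypo estimates was not tested.

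Hypo against Norm called no member in either genotype. In F/F, Mbp was at -0.79 ± 0.30, Prx at -0.64 ± 0.26 and S100b at -0.41 ± 0.18 (SE, limma, n = 4 per group, adjusted p = 1), the 3 of 7 with p under 0.05 before adjustment, where 3.83% of all genes were and 0.0% were called. In ChMKO the values were 0.41 ± 0.53 for Mbp and 0.27 ± 0.45 for Pmp22, with 0 of 7 called (0.89% of all genes) and 0 at p under 0.05 (15.1%).

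HFrD against Norm gave lower estimates for all 7 tested members in both genotypes, beside a median over all genes of -0.10 in F/F and -0.17 in ChMKO. In F/F, Pmp22 was at -0.96 ± 0.30 (limma, adjusted p = 0.158), Mbp at -0.77 ± 0.32 (0.201) and Prx at -0.66 ± 0.27 (0.194), the 3 with p under 0.05 before adjustment (23.6% of all genes), and 0 of 7 were called (0.0% of all genes). Leaving out 1 library moved Mbp between -0.98 and -0.49 and Pmp22 between -1.2 and -0.69. In F/F the tendon and fascia (8 of 8 lower, median -0.79), macrophage and leukocyte (7 of 7, -0.78) and red cell genes (5 of 5, -0.90) were lower too. The myofibre genes were at 0.16 (5 of 8 higher), with 0 called in these lists. In ChMKO, S100b fell by 0.60 ± 0.19 (adjusted p = 0.0189), Ncmap fell by 0.66 ± 0.23 (0.031) and Pmp22 fell by 0.91 ± 0.34 (0.0425), so 3 of 7 were called where 64.0% of all genes were and 68.1% had p under 0.05, a share of members below the background. S100b read 2.26, 1.54, 2.96 and 1.16 FPKM in Norm ChMKO, and its HFrD values of 0.532 to 1.17 FPKM overlapped that range at its lower end. Mbp in ChMKO was at -0.53 ± 0.39 (adjusted p = 0.263). Without HFrD ChMKO KO_C299 the number of members called was 0, and without Norm ChMKO N_KO_370, Norm ChMKO N_KO_375, HFrD ChMKO KO_C291 or HFrD ChMKO KO_C309 it was 1 in each case. Several lists of other cells fell in the same contrast, with a median of -1.57 for the tendon and fascia genes (7 of 8 called lower) and -1.2 for the red cell genes (5 of 5). It was -0.69 for the macrophage and leukocyte genes (6 of 7) and -0.66 for the endothelial genes (6 of 8), against -0.59 for the members. The other myelinating Schwann genes were at -0.25 (3 of 10 called lower). The adipocyte genes were at 0.15 (1 called higher) and the non-myelinating or immature Schwann genes at 0.35 (2 called higher and 1 lower). The part of these lists in the members' values was not tested.

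A split of the stress libraries runs through these diet values. Its first principal component held 61.6% of the variance and set Norm F/F N_WTc397 and N_WTc401, Hypo F/F H_WTc360 and H_WTc361 and all 8 HFrD libraries apart from the remaining 12, which the labels do not explain. In ChMKO the split coincides with Norm against HFrD, so diet and split cannot be told apart there. In F/F, HFrD against the 2 Norm libraries of the same side was -0.66 for Pmp22 (adjusted p = 0.212) and -0.55 for Mbp (0.326). With side as a term, the Hypo genotype estimate of Mbp was 0.82 and that of Pmp22 0.61 (adjusted p = 0.9999 for both), and the Norm estimate of Mbp was -0.58 (0.978).

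**Figure D4:**
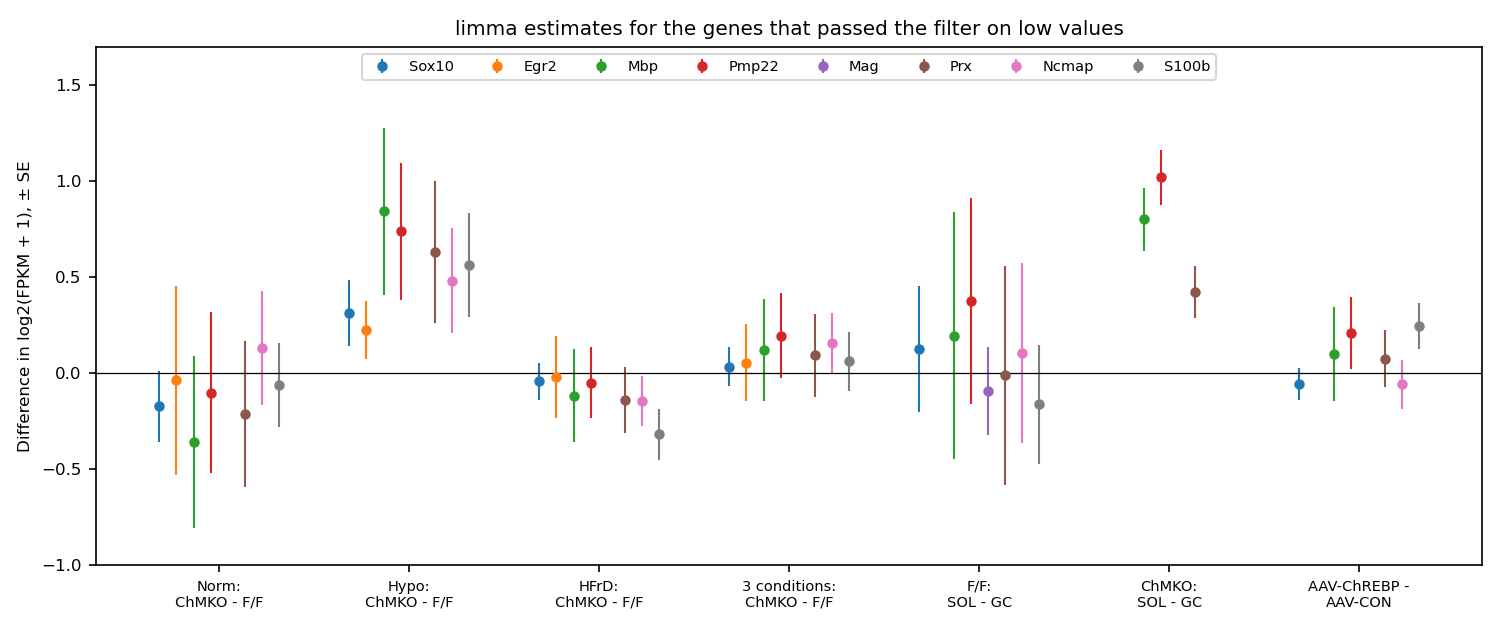
Estimates of the difference in log2(FPKM + 1) from limma, for each member that passed the minimum level, in the genotype, muscle and AAV comparisons, with bars of 1 SE and a line at no difference. The Hypo genotype estimates lie above the line (0.84 for Mbp) with wide bars, the HFrD ones lie below or near it (-0.02 to -0.32), the Norm ones lie below it except that of Ncmap (0.13), and the ChMKO muscle estimates of Mbp, Pmp22 and Prx lie above it (0.80, 1.02 and 0.42).

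With ChREBP raised in GC by AAV, the values of all 8 members overlapped between the vectors. Pmp22 read 28.5, 28.1, 22.3, 25.9 and 19.7 FPKM under AAV-CON and 28.3, 28.4, 19.9, 48.2 and 25.1 FPKM under AAV-ChREBP in libraries 1, 3, 4, 7 and 8. Mbp read 10.3 to 17.8 FPKM under AAV-CON and 14.3, 15.9, 8.18, 28.1 and 14.5 FPKM under AAV-ChREBP, so that library 7 was the high one for both genes and the groups overlapped. The 18 other Schwann genes summed to 11.6 to 16.5 FPKM under AAV-CON and to 10.96 to 22.8 FPKM under AAV-ChREBP. Of the 6 members tested, 0 were called, where 0.00904% of all genes were, and 0 had p under 0.05 before adjustment, where 2.91% did. With same-numbered libraries as pairs 0 members were again under 0.05 before adjustment, against 5.85% of all genes. The estimate was 0.21 ± 0.19 for Pmp22, 0.10 ± 0.25 for Mbp, 0.25 ± 0.12 for S100b and -0.06 ± 0.08 for Sox10 (SE, log2 scale, n = 5 per group, limma, adjusted p = 1). Leaving out 1 library moved Pmp22 between 0.03 and 0.34, S100b between 0.19 and 0.35 and the median of the members between -0.07 and 0.24. S100b read 0.964 FPKM in AAV-CON 3, and the next highest AAV-CON library was at 0.420. Mag, too low for the test, read 0.149 to 0.389 FPKM under AAV-CON and 0.302 to 0.653 under AAV-ChREBP.

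**Figure D5:**
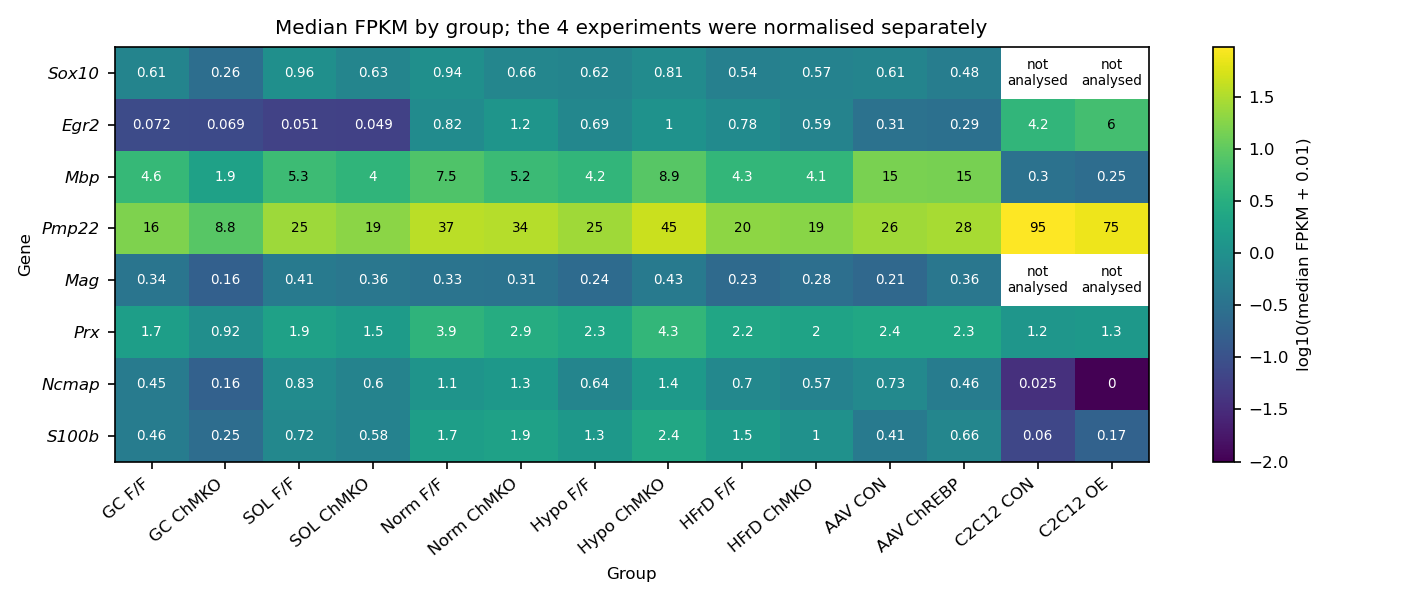
Median FPKM of each member in each of the 12 muscle groups and the 2 C2C12 groups, printed in each cell and coloured by log10 of the median plus a small constant; experiments were normalised separately. Pmp22 has the highest median of the 8 in every muscle group and Mbp the next, whereas in C2C12 Egr2 comes next.

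Cultured muscle cells without nerve held some of the members and lacked others. In C2C12 cells Pmp22 read 92.5 to 101.1 FPKM in CON and 74.3 to 78.1 FPKM in OE, and of the muscle libraries, which were normalised apart from these, only GC F/F 69 and Hypo ChMKO H_KOc340 read as high as the lowest of them. Egr2 read 3.60 to 4.32 FPKM in CON and 5.15 to 6.43 FPKM in OE, without overlap for either gene. Of the genes above the 0.5 FPKM minimum, 14.7% were lower and 16.6% higher in OE without overlap, so such a difference is common in these cells. Prx read 1.06 to 1.47 FPKM over both groups. Mbp, at 0.23 to 0.45 FPKM, S100b, at 0.04 to 0.17, and Ncmap, at 0 to 0.05, were near the floor. Cells of the muscle lineage thus make Pmp22 and Egr2 in culture, and a few genes of the Schwann cell list were high there too, with CON medians of 12.5 FPKM for Drp2, 13.4 for Cnp, 19.2 for Cadm4, 25.5 for Adgrg6 and 5.19 for Erbb3. Schwann cell mRNA and muscle cell mRNA of these genes cannot be told apart in whole muscle.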

How the data were processed

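RNA was extracted by the authors with TRIzol and sequenced on an Illumina NovaSeq instrument, and the submitters' processing notes name fastp 0.18.0, Bowtie2 2.2.8, HISAT2 2.1.0, StringTie 1.3.1 and RSEM. The deposited values are FPKM per gene, made by the authors; for the AAV and C2C12 tables this unit was read from the values, and their build is not given in the sources used here. Positions in the chow table are those of GRCm38 and in the stress table those of GRCm39. Gene lengths, in bases, are deposited with the stress table, and they gave back whole reads for 99.97% of its values (within 0.05 of a whole number). The fold changes, p-values and FDR that the authors deposited with the AAV table are their own comparisons and were not used. Symbols in the AAV and C2C12 tables were matched by NCBI gene ID, for 20918 of 21039 and 17842 of 17898 rows.

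Values were analysed as log2(FPKM + 1) with limma 3.58.1 (moderated by mean level, two-sided) in R 4.3.3, over every gene that averaged 0.5 FPKM or more in the libraries compared, with Benjamini-Hochberg adjustment over all of them and a threshold of 0.05; the pipeline was tested on simulated data. Each comparison was fitted on its own groups, and the stress genotype and interaction fits used the groups they name. The study's methods describe the libraries of each group as independent biological replicates. Same-numbered AAV libraries deviated together from their group means (r = 0.211 to 0.490), over 0.1 in every pair. What they share is not stated in the sources used here, so a paired fit is given beside the unpaired main one. For GC and SOL libraries of 1 number r was 0.114 to 0.323 in 4 F/F pairs and -0.0239 in the other, and 0.0192 to 0.0502 in ChMKO. They were fitted unpaired, with a replicate block as an alternative, although a shared number may mean 1 mouse. Differences of the members between SOL and GC were fitted in the same way but are given without p-values, since they rest on libraries used to choose the genes. Alternatives were a pseudocount of 0.1, no minimum, a minimum of 2 FPKM, rescaling by median ratio, voom on recovered reads and a replicate block. Each library was also left out in turn, and the chow members were set against the sum of the other myelinating Schwann genes. The members and the marker lists were chosen with earlier results of these data known. All 8 members are named, and the 12 genes most like them by the smallest correlation in 3 tables. Promoter sequences are from RefSeq. The list of other myelinating Schwann cell genes was used without the genes that are not reported here.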

Additional observations from a re-analysis of the deposited data

Results flagged for a closer look

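The highest or lowest library stood clear of its group, by a gap test at the 95% level, in 15 of 108 gene and group combinations. In 7 of them the library was GC F/F 69, where Mbp read 35.23 FPKM (next highest 5.20), Pmp22 99.2 (17.8), Prx 18.05 (2.34), Ncmap 6.78 (0.625), Sox10 4.098 (0.765), S100b 3.613 (0.771) and Mag 1.783 (0.339). Egr2 was the member without such a gap in that group. The chow values chose the genes, and genes of 1 library move together, so the combinations are not separate trials. The count is a description and is not set against a chance rate.

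In the stress experiment Egr2 read 5.164 FPKM in Norm F/F N_WTc369 (next highest 1.00), S100b 3.285 in Norm F/F N_WTc368 (1.72) and Sox10 1.904 in Hypo ChMKO H_KOc340 (0.829), and Sox10 in HFrD ChMKO KO_C299 was the lowest at 0.3045 FPKM (0.567 next). S100b read 0.964 FPKM in AAV-CON 3 (0.420). In C2C12 OE, near the floor, Mbp read 0.45 FPKM in library 2 (0.26), Ncmap 0.05 in library 4 with the rest listed at 0, and S100b 0.13 in library 3 with the rest at 0.17.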

How the results depend on the processing

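The count of members called was the same or within 1.5 times under the alternatives, except as follows. For HFrD against Norm in ChMKO it went from 3 to 1 with no minimum level and to 1 with a minimum of 2 FPKM, and ranged from 0 to 4 when 1 library was left out. For SOL against GC, where the count past the threshold is a description, it went from 3 to 5 in ChMKO with no minimum, where all 8 members were fitted, and ranged from 0 to 1 in F/F when 1 library was left out. Signs turned for SOL against GC in F/F, where Prx was 0.10 with a pseudocount of 0.1 and Mbp -0.015 after rescaling. When 1 library was left out, that comparison ranged from -0.18 to 0.83 for Mbp and from -0.30 to 0.57 for Prx, and the genotype estimate over the 3 stress conditions from -0.035 (without H_KOc340) to 0.23 for Mbp. With voom on recovered reads 0 members were called in the stress genotype, interaction and hypoxia comparisons.

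With a replicate block for same-numbered libraries, 3 of 3 members were still past the threshold for SOL against GC in ChMKO, and 0 were for SOL against GC in F/F and for AAV. The block was run for these comparisons only. The fits with the side of the first principal component were chosen after seeing the data, as was leaving out SOL F/F 69 and 71 together; with side as a term the median genotype estimate was -0.04 over the 3 stress conditions and 0.50 under Hypo. Reads in the stress table were 8 to 42 for Mag and 8 to 108 for Ncmap per library, against 342 to 2793 for Mbp, so counting error is largest for the low members.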
